A study of Rattus norvegicus and Bos taurus with 6 samples.

Results

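The 10 genes described here are 4 Notch receptors (Notch1, Notch2, Notch3, Notch4), 3 of their ligands (Dll4, Jag1, Jag2) and 3 target genes (Hey1, Hey2, Heyl). They were matched by symbol, in any letter case, and each was listed once in all 6 libraries, among 25629 to 38697 genes per library. Nuclei were isolated from snap-frozen fat for single-nucleus RNA sequencing, and each transcript was counted as a unique molecular identifier (UMI). The 5 rat libraries came from male Dahl salt-sensitive rats (strain SS/HsdMcwiCrl) fed a normal diet, with no treatment named in the labels. By label, mesenteric perivascular adipose tissue was prepared with a 10x kit (mesPVAT 10x) and with the Parse Evercode kit (mesPVAT Parse). The other rat libraries were retroperitoneal fat (RP fat), thoracic aortic perivascular adipose tissue (taPVAT) and subscapular brown adipose tissue (BAT). The remaining library was subcutaneous white fat of lactating Holstein cows (cow sWAT). All but the first used the Parse kit and were labelled batch 2. Ages and the number of animals behind a library are not given in the labels.

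Notch signalling passes between cells that touch. A ligand of the Delta-like or Jagged type on one cell binds a Notch receptor on its neighbour, proteases of the ADAM family and the gamma-secretase complex release the receptor's intracellular part, and this moves to the nucleus, joins the DNA-binding protein RBPJ and Mastermind-like coactivators, and switches on genes of the Hes and Hey families. In blood vessels, NOTCH1, NOTCH4 and DLL4 are known from endothelial cells and from arterial specification, while NOTCH3, activated by JAG1 of neighbouring cells, is known from pericytes and vascular smooth muscle. HEY1, HEY2 and HEYL are transcriptional repressors.

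Every condition had 1 library, so no test between conditions was possible and no p-value is given. Intervals in brackets are exact 95% intervals (Poisson for levels, conditional binomial for ratios, Clopper-Pearson for shares) and cover counting error only. Levels are UMIs of a gene per 1000000 UMIs of all genes (CPM), summed over nuclei, and are compared between libraries or classes of nuclei for the same gene.

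The libraries held 2297 to 5887 nuclei, with no barcode shared between any pair of libraries. The median nucleus had 161 UMIs in mesPVAT 10x, 346 in mesPVAT Parse and 213 in RP fat, while taPVAT had 1246, BAT 1706 and cow sWAT 3530. Nuclei were classed by 8 lists of marker genes, each going to the list with its highest marker sum where that sum was 2 UMIs or more and not tied. This named 93.1% of taPVAT nuclei, 97.1% of BAT nuclei and 94.6% of cow nuclei, but 59.4%, 53.7% and 24.9% in mesPVAT 10x, mesPVAT Parse and RP fat. The adipocyte gene Plin1, which coats lipid droplets, was found in 60.4% of taPVAT nuclei and 69.1% of BAT nuclei but in 9.59% of nuclei of the library labelled RP fat. The study's text ranks the genes per nucleus of the Parse libraries of mesPVAT and RP fat the other way round, so the names of these libraries are used as deposited. Results by class therefore rest on taPVAT, BAT and cow sWAT.

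Hey2, Heyl and Notch4 are shown as 1 example each of a gene whose highest marker class in taPVAT and BAT was the adipocyte, mural or endothelial one. The 180 bases before the start of each gene are printed (RefSeq, rat build GRCr8; Hey2 chr1:28640920-28641099, plus strand; Heyl chr5:140793091-140793270, plus strand; Notch4 chr20:4189073-4189252, minus strand, printed along the gene). Capitals mark TGGGAA or its reverse complement TTCCCA, the core letters bound by RBPJ.
Hey2: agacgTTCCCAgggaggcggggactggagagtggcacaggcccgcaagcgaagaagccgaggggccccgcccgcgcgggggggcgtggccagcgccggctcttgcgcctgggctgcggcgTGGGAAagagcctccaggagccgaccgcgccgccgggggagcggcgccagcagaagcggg
Heyl: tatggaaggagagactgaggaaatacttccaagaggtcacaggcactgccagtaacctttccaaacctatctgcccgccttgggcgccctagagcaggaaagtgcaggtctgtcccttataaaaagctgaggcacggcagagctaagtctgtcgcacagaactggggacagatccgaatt
Notch4: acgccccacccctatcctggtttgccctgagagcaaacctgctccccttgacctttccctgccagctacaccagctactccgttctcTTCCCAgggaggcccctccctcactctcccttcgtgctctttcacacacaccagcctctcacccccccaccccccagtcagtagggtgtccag
The Hey2 window holds the letters in both orientations, at 60 to 55 and 175 to 170 bases before the start, and the nearer match extends to GTGGGAA. The Notch4 window holds one match at 93 to 88 bases, with another at 246 to 241 bases, outside the stretch shown. Over the 250 bases before the start, searched on both strands, TGGGAA was found in 22.1% of 33469 rat promoters and in 2 of the 9 member promoters in the table (Hey2 and Notch4). The longer GTGGGAA, which contains it, was found in 5.27% of promoters and in 1 member (Hey2), and CACGTG, an E-box that Hey proteins can bind, in 5.59% of promoters and in 0 members. Hey1 was not among the promoters matched. These matches describe letters only.

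Among the receptors, Notch1 (GRCr8 chr3:29676040-29721613) was measured at 98.6 CPM in mesPVAT 10x, 84.5 CPM in mesPVAT Parse, 59.1 CPM in RP fat, 71.2 CPM in taPVAT, 78.2 CPM in BAT and 123 CPM in cow sWAT. The cow level was the highest, with no overlap of its interval with those of the rat libraries, and the taPVAT level was 0.91 times that of BAT (0.79–1.04). In these sums, fewer cells of a type and less RNA per cell cannot be told apart. Notch2 (chr2:188299336-188432823) stood at 204, 88.1, 109, 105, 76.1 and 403 CPM in the same order, so that it was highest in cow sWAT and, among the rat libraries, in mesPVAT 10x. Notch3 (chr7:11783550-11834585) was lowest in mesPVAT 10x, at 37.2 CPM, and read 99.0, 80.4, 82.9, 102 and 118 CPM in the others. Notch4 (chr20:4164969-4189072) had the widest span of the receptors over the rat libraries, from 19.4 CPM in mesPVAT 10x and 46.1 in RP fat through 86.1 in taPVAT and 93.1 in BAT to 136 in mesPVAT Parse, with 76.5 CPM in the cow.

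For the ligands, Jag1 (chr3:144859453-144894883) was at 241 CPM in mesPVAT 10x, 92.4 CPM in mesPVAT Parse, 47.3 CPM in RP fat, 86.5 CPM in taPVAT, 76.3 CPM in BAT and 169 CPM in cow sWAT. Dll4 (chr3:126770945-126780769) was counted at 12.1, 25.4, 22.5, 15.1, 20.6 and 9.39 CPM in that order. Jag2 (chr6:137804133-137826738) read 7.27, 25.4, 22.5, 20.4, 22.3 and 30.0 CPM. The Dll4 and Jag2 intervals overlapped among the 4 rat Parse libraries, which rest on 19 to 141 UMIs for these genes. Such overlap does not exclude a difference, and Dll4 was lower in taPVAT than in BAT beyond the counting error of their ratio, given below.

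The 3 targets behaved differently from each other. Hey1 (chr2:95003935-95006457) was sparse in all 6 libraries, with 5 to 12 UMIs in each rat library and 96 in the cow, or 1.74 to 5.91 CPM. Heyl (chr5:140793271-140810262) stood at 5.66 CPM in mesPVAT 10x, 13.9 CPM in mesPVAT Parse, 22.5 CPM in RP fat, 18.6 CPM in taPVAT, 28.3 CPM in BAT and 25.8 CPM in cow sWAT. Hey2 (chr1:28641100-28651187) split the libraries: it was at 37.1 CPM (32.0–42.7; 189 UMIs) in taPVAT and 41.3 CPM (36.5–46.6; 261 UMIs) in BAT, against 0.808 CPM (1 UMI) in mesPVAT 10x, 3.62 CPM (6 UMIs) in mesPVAT Parse, 7.098 CPM (6 UMIs) in RP fat and 4.75 CPM (80 UMIs) in the cow. Neither brown-fat interval overlapped any of the other 4. Within the brown libraries, both Parse sublibraries gave like values for Hey2, at 39.8 and 34.1 CPM in taPVAT and 44.9 and 37.7 CPM in BAT. The sublibrary ratio of Hey2 was 1.16 (0.87–1.57) in taPVAT and 1.19 (0.93–1.53) in BAT. The interval of this ratio excluded 1 for Notch2 and Notch4 in taPVAT, Notch1 and Notch2 in BAT and Jag1 in mesPVAT Parse. In BAT the ratios of Notch1 and Notch2, both 0.83, were differences of about the same size as that of Hey2, on more UMIs.

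**Figure D1:**
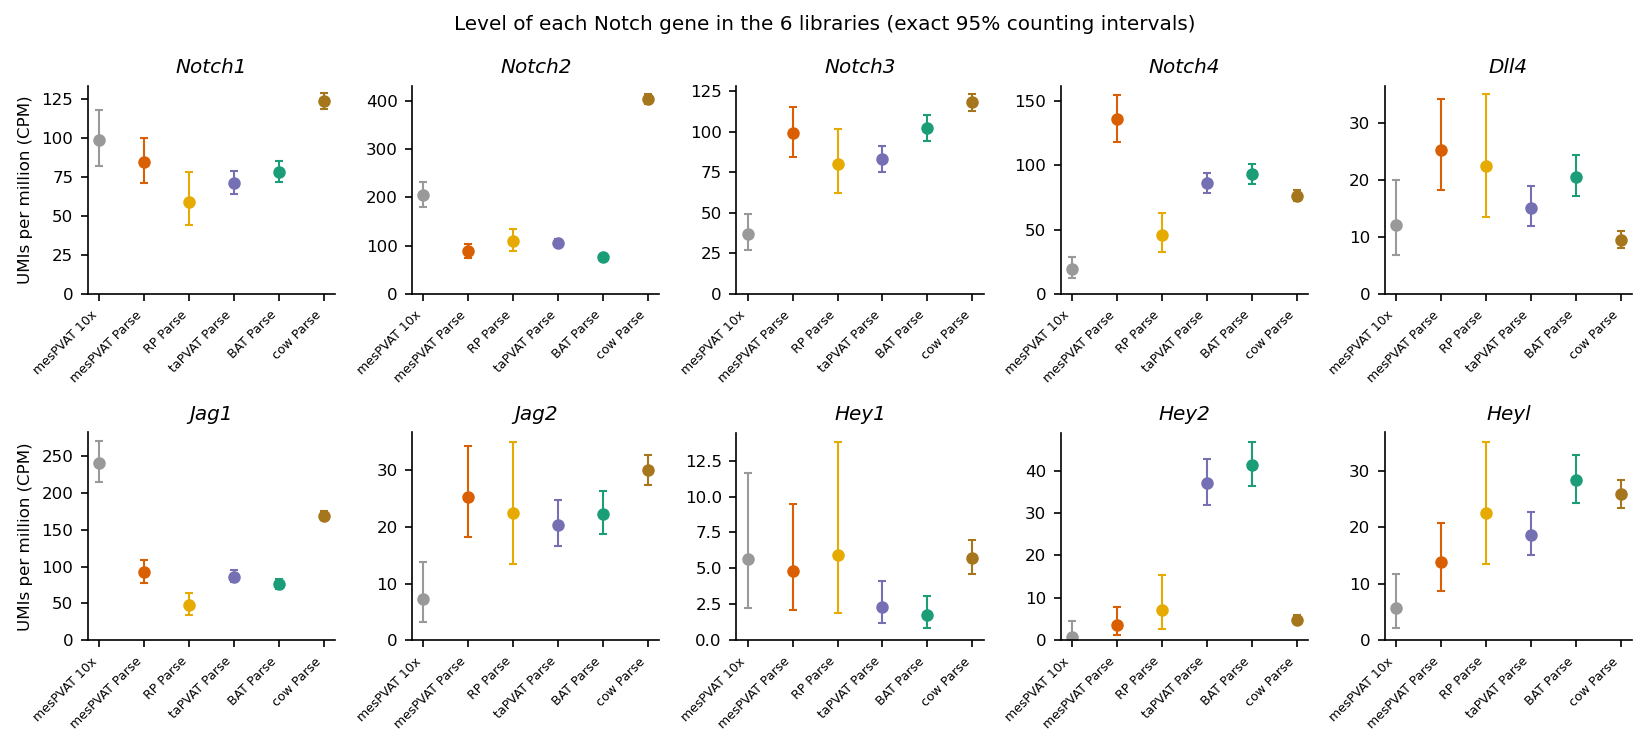
Level of each of the 10 genes (y axis, CPM, linear scale from 0 and different for each panel) in the 6 libraries (x axis), with exact 95% counting intervals. Hey2 stands at 37.1 and 41.3 CPM in taPVAT and BAT and at 7.098 CPM or less in the other 4 libraries, while Notch4 spans 19.4 to 136 CPM.

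Shares of nuclei with at least 1 UMI depend on depth as well as on level, and were therefore also read at a common depth. Notch1 was found in 1.82% of mesPVAT 10x nuclei, 3.96% of mesPVAT Parse nuclei, 1.57% of RP fat nuclei, 10.9% of taPVAT nuclei, 14.0% of BAT nuclei and 37.5% of cow nuclei. After each nucleus was thinned to 200 UMIs, leaving out 3788 shallower nuclei in mesPVAT 10x, 476 in mesPVAT Parse and 1302 in RP fat and none in taPVAT or BAT, those shares were 1.76%, 1.61%, 0.998%, 1.81%, 1.70% and 3.22%. Hey2 was found in 6.06% of taPVAT nuclei, 7.97% of BAT nuclei and 2.66% of the deeper cow nuclei before thinning. At the common depth its shares were 0.775% (0.481–1.18) in taPVAT and 0.519% (0.284–0.869) in BAT. They were 0.118% (0.0242–0.343) in mesPVAT Parse and 0 of 2099 nuclei in mesPVAT 10x, with an upper bound of 0.176%. The intervals of BAT and mesPVAT Parse overlapped, and the thinned Hey2 shares of RP fat and the cow are not given here.

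Between the brown depots, the set was close to level. Of the 10 genes, 0 differed past 2-fold between taPVAT and BAT, where 6.62% of 18696 genes with at least 20 UMIs did (5.68% higher and 0.947% lower in taPVAT), and the median log2 ratio of taPVAT over BAT was -0.13 for the set and 0.11 for all genes. Heyl had the lowest ratio, at 0.66 (0.51–0.85), followed by Dll4 at 0.73 (0.55–0.98) and Notch3 at 0.81 (0.72–0.92). Notch2 had the highest of those whose interval excluded 1, at 1.38 (1.22–1.56). Its level differed between sublibraries, at 115 and 93.9 CPM in taPVAT and 69.0 and 83.3 CPM in BAT. Pdgfra (stromal cells) and Ptprc (immune cells) were at 56.9 and 151 CPM in taPVAT against 14.7 and 49.9 CPM in BAT, and their part in the Notch2 ratio was not tested. Among the 39 other pathway genes, 34 were counted well enough, and 2 of them were past 2-fold higher in taPVAT (Dtx1, and Rbpj at 169 against 72.3 CPM) and 0 lower.

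Between the white depots on the Parse kit, 1 of 8 genes with enough UMIs was past 2-fold, against 15.1% of all genes in either direction, 5.33% higher and 9.79% lower in mesPVAT. That gene was Notch4, which was 2.94 times (2.09–4.25) higher in the library labelled mesPVAT than in that labelled RP fat. Jag1 followed at 1.95 times (1.37–2.84). Its level differed between the mesPVAT Parse sublibraries, at 73.1 and 113 CPM. The endothelial gene Ptprb, a receptor phosphatase, was itself 1.55 times (1.31–1.84) higher and Plin1 2.69 times (2.42–3.00) higher in the library labelled mesPVAT, and their part in these ratios was not tested. Of 30 pathway genes counted, 3 were past 2-fold higher (Dll1, Dtx3, Spen) and 1 lower (Dtx1).

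Of the 3 pairs of libraries compared, most members shifted past 2-fold between the 10x and Parse libraries labelled mesPVAT. These libraries differ in kit, batch, isolation method, genome annotation and aligner, which cannot be told apart. That both hold the same tissue rests on the labels as deposited, since the study's text ranks mesPVAT and RP fat on the Parse kit the other way round. Here 55.0% of 12378 genes were past 2-fold, 22.4% higher and 32.6% lower in 10x, so that a share of members this size is not a result about the members. Of 8 genes counted, 2 were higher in 10x, Jag1 at 2.61 times (2.14–3.19) and Notch2 at 2.32 times (1.88–2.86). The other 5 past the line were lower in 10x. They were Notch4 at 0.14 times (0.09–0.22), Jag2 at 0.29, Notch3 at 0.38, Heyl at 0.41 and Dll4 at 0.48. With the ratios rescaled to the median of well-counted genes, a shift of 0.34 on the log2 scale, Jag1 was still past 2-fold higher, Notch2 was not, and 5 remained lower. Ptprb and Pdgfrb, a receptor of mural and stromal cells, were also lower in 10x, at 89.7 against 333 CPM and 23.4 against 132 CPM, and their part in these ratios was not tested. Notch1, which is highest in endothelial nuclei in the deeper libraries, was at 98.6 against 84.5 CPM, a ratio of 1.17 (0.908–1.498). Hes1, a repressor of the related Hes family and another classical target, was at 766 CPM in 10x and 5.43 CPM in Parse, a ratio of 141 (74.0–309). It was low in all 5 Parse libraries, at 5.43 to 19.6 CPM, and the 10x library alone stood apart.

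By class of nuclei, receptors and ligands divided between endothelial, mural and immune nuclei, and the leading class of each receptor was the same in rat taPVAT, rat BAT and cow sWAT. In blood endothelial nuclei, 4 of 9 tested members were past 2-fold above the other named nuclei in taPVAT (16.2% of all genes), 5 of 9 in BAT (16.5%) and 5 of 10 in the cow (6.33%). The median log2 ratio of the members there was 0.73, 1.29 and 1.10, against 0.09, 0.02 and -0.14 for all genes tested. In pericyte and smooth muscle nuclei, together called mural, the counts were 3 of 9 in taPVAT (22.4% of all genes), 4 of 9 in BAT (18.8%) and 3 of 10 in the cow (11.4%). In adipocyte nuclei they were 1, 1 and 0 (9.23%, 11.1% and 8.14% of all genes), and the members' median log2 ratio was -1.88, -2.01 and -2.17, against -0.45, -0.29 and -0.26. In stromal progenitor nuclei 2 of 9 members (Notch2 and Heyl) were past 2-fold in taPVAT and in BAT and 0 of 10 in the cow, beside 22.8%, 28.6% and 3.46% of all genes. In immune nuclei Notch2 alone was past 2-fold, or 1 of 9, 1 of 9 and 1 of 10 members (29.2%, 34.9% and 12.1% of all genes). The members' median log2 ratio in immune nuclei was -0.19, -1.28 and -1.25, below the 0.38, 0.48 and 0.20 of all genes.

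The shallower libraries allowed fewer members to be tested. In mesPVAT Parse, 4 of 7 members were past 2-fold higher in endothelial nuclei (Notch1, Notch4, Dll4 and Jag2; 8.34% of all genes), 3 in mural nuclei (Notch3, Notch4 and Jag2; 10.9%) and 1 in mesothelial nuclei (Notch2; 27.4%), with 0 in adipocyte (5.29%), stromal (7.93%) and immune nuclei (25.8%). In RP fat, 3 of 4, Notch1, Notch3 and Notch4, were called higher in endothelial nuclei (6.86%), and 1, Notch3, in mural nuclei (9.23%). The count was 0 in adipocyte (9.92%), stromal (4.18%) and immune nuclei (6.53%). In mesPVAT 10x, 1 of 4 was higher in adipocyte nuclei (Jag1; 14.0%), 1 in endothelial nuclei (Notch1; 19.0%) and 3 in immune nuclei (Notch1, Notch2 and Notch3; 20.1%), with 0 in stromal (10.4%) and mesothelial nuclei (13%). Some of these rest on very few UMIs: Notch3 had 2 in immune nuclei of mesPVAT 10x and 12 in endothelial nuclei of RP fat. Its plain ratio in the latter was 1.98 (0.876–4.29), so it passed 2-fold only through the UMIs added for the call. The mural Notch3 ratio of RP fat was 2.18 (0.730–5.43; 6 UMIs), and the immune one of mesPVAT 10x was 2.13 (0.243–8.68). These Notch3 intervals all included 1. Those of Notch1 (1.38–7.09) and Notch4 (1.29–7.62) in endothelial nuclei of RP fat did not.

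**Figure D2:**
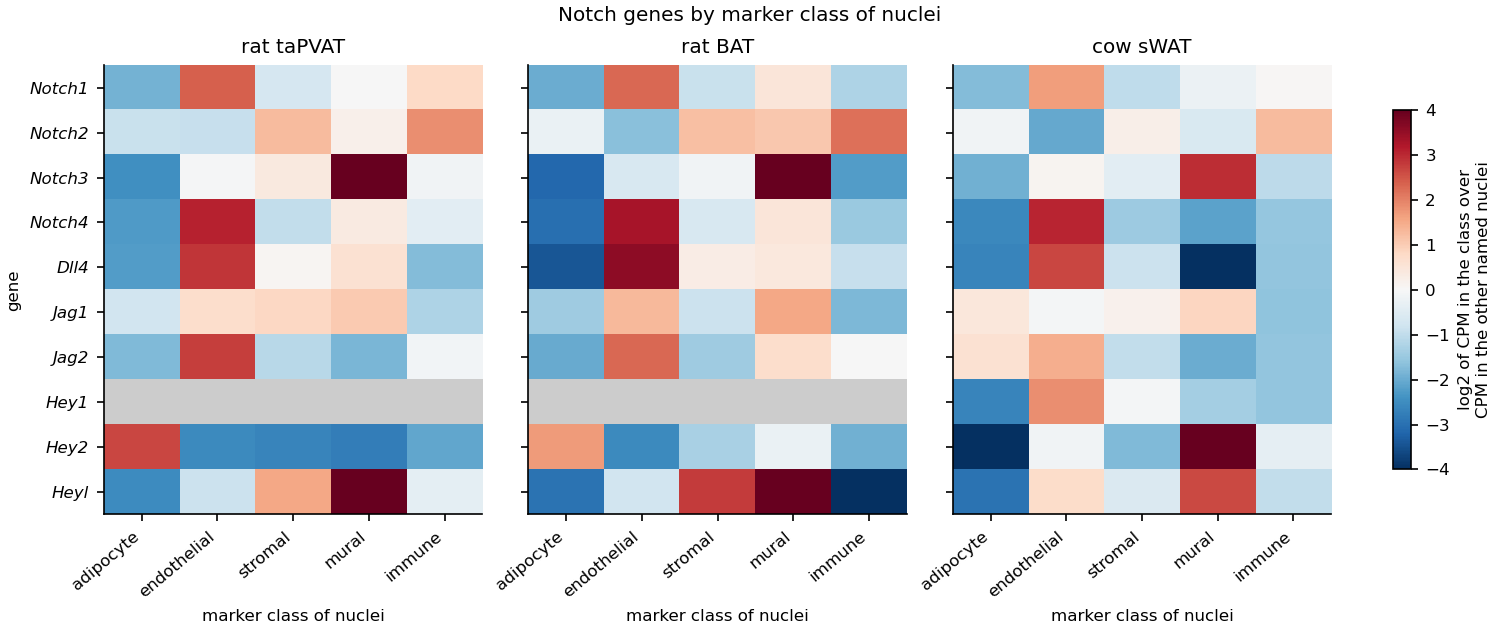
Colour gives the log2 of a gene's CPM in a class of nuclei over its CPM in the other named nuclei of the same library, clipped at 4 either way (values of 0 take the lowest colour). Grey rows mark genes with fewer than 20 UMIs in named nuclei. Notch1, Notch4, Dll4 and Jag2 are red in endothelial nuclei and Notch3 and Heyl in mural nuclei in the 3 libraries. Hey2 is red in adipocyte nuclei of taPVAT and BAT and in mural nuclei of the cow.

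Notch4 had the largest endothelial ratio of the 4 receptors in each of taPVAT, BAT and cow sWAT. Its level in endothelial nuclei was 394 CPM in taPVAT, 409 CPM in BAT and 238 CPM in cow sWAT, or 8.43 (6.94–10.2), 9.80 (8.27–11.6) and 8.18 (7.24–9.25) times that in the other named nuclei. It was found in 35.9%, 36.8% and 55.4% of endothelial nuclei and in 7.54%, 6.25% and 15.3% of adipocyte nuclei, at median depths of 888, 1053.5 and 3891 UMIs against 1949, 2201 and 8481. Endothelial nuclei of the Parse library labelled mesPVAT held 358 CPM (289–438), close to the brown depots, although the library as a whole was highest for Notch4. Mural nuclei of that library held 314 CPM (205–460; 26 UMIs). Notch1 was less sharply divided, at 246, 248 and 263 CPM in endothelial nuclei and 5.27, 4.94 and 3.19 times the others. With nuclei named by a single anchor gene instead of marker lists, the Notch4 ratios were 16.6, 19.4 and 10.5. The study's cut-offs on nuclei were also applied, to each library alone and without its doublet step. The cow ratio of Notch4 was then 14.6 and that of Dll4, described next, 15.3.

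Dll4, the endothelial Notch ligand, was at 64.5 CPM (36 UMIs) in endothelial nuclei of taPVAT, 98.4 CPM (86 UMIs) in BAT and 27.0 CPM (103 UMIs) in the cow, and these were 7.29 (4.50–11.8), 12.0 (8.27–17.7) and 6.36 (4.53–9.02) times the level elsewhere, or 19.3, 21.3 and 22.4 with single anchor genes. No Dll4 UMI was found in the 186 mural nuclei of the cow (upper bound 4.202 CPM). Jag2 was also higher in endothelial nuclei, at 6.85, 4.89 and 2.74 times. In the cow, adipocyte nuclei held Jag2 at 42.5 CPM, 1.53 times (1.23–1.88) the others, and Dll4 at 1.79 CPM, 0.161 times. Jag1, in contrast, was spread over classes: in BAT it was higher both in endothelial nuclei (155 CPM, 2.43 times) and in mural nuclei (201 CPM, 2.94 times), and in the cow it was at 217 CPM in adipocyte, 162 in endothelial, 183 in stromal and 296 in mural nuclei. Immune nuclei were its lowest class in all 3, at 37.4, 22.2 and 62.9 CPM.

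Endothelial nuclei were divided further by arterial, capillary and venous markers, an analysis added after the data were seen. Dll4 stood at 89.9 CPM in arterial, 47.8 in capillary and 24.9 in venous nuclei of taPVAT, where it rests on 6, 12 and 2 UMIs. In BAT the levels were 223, 97.1 and 33.8 CPM, and in the cow 53.1, 27.3 and 4.12 CPM. Arterial nuclei thus exceeded capillary ones by 2.29 times (1.33–3.83) in BAT and 1.94 times (1.20–3.06) in the cow. In the cow venous nuclei were also lower for Dll4, at 0.15 times (0.018–0.56) the capillary level. Notch4 had arterial and capillary levels of 449.7 and 454 CPM in taPVAT, 455 and 426 CPM in BAT and 222 and 278 CPM in the cow, where the ratio was 0.80 (0.65–0.97). Its venous over capillary ratios were 0.47 (0.26–0.78), 0.40 (0.19–0.74) and 0.27 (0.19–0.37) in taPVAT, BAT and the cow. Jag1 had its lowest level in capillary nuclei, with arterial over capillary ratios of 2.19 (1.05–4.41), 2.90 (1.86–4.45) and 2.38 (1.96–2.88). The venous groups held 34, 33 and 63 nuclei.

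**Figure D3:**
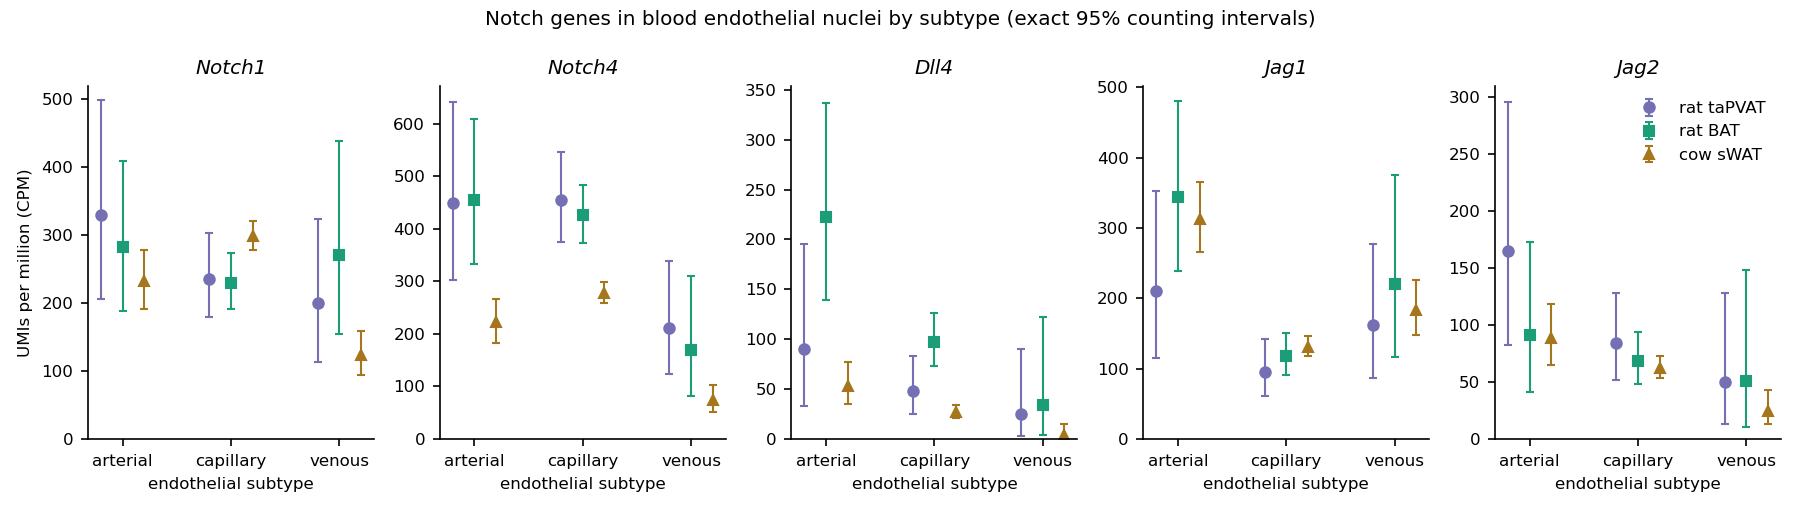
CPM (y axes, linear from 0) of 5 genes in blood endothelial nuclei called arterial, capillary or venous (x axes), with exact 95% counting intervals, in 3 libraries. Dll4 is highest in arterial nuclei (223 CPM in BAT and 53.1 CPM in the cow) and Notch4 is lowest in venous nuclei (212, 169 and 74.2 CPM).

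Notch3 and Heyl marked mural nuclei. Notch3 was at 1001 CPM (858–1160) in mural nuclei of taPVAT, 1074 CPM (970–1185) in BAT and 663 CPM (610–719) in the cow, which was 20.5 (16.7–25.0), 25.4 (21.6–29.8) and 7.73 (7.00–8.53) times the level in other named nuclei. It was found in 52.3%, 67.7% and 79.6% of mural nuclei and in 5.47%, 4.36% and 21.3% of adipocyte nuclei. Mural nuclei of mesPVAT Parse also held their library's highest level, at 507 CPM (365–685). Heyl followed the same order, at 206 CPM (36 UMIs), 231 CPM (85 UMIs) and 126 CPM (111 UMIs), or 17.9 (11.4–27.8), 15.8 (11.6–21.6) and 6.26 (5.00–7.80) times the others. The single anchor used here was Pdgfrb, a gene of mural and stromal cells, so that the class differs from the mural one. Nuclei with this anchor alone gave Notch3 ratios of 26.9, 54.6 and 13.5 and Heyl ratios of 39.7, 36.2 and 4.67. A second place with Heyl was the stromal progenitor class of the rat, at 47.8 CPM in taPVAT and 170 CPM in BAT (20 UMIs in 84 nuclei), or 2.92 and 6.91 times the others. In the cow the stromal level was 19.9 CPM, 0.675 times the others.

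Within mural nuclei, Heyl and Notch3 leaned to pericytes in rat taPVAT and BAT and not in cow sWAT. Heyl was 4.83 times (2.06–13.1) higher in pericyte than in smooth muscle nuclei of taPVAT (367 against 76.0 CPM) and 3.12 times (1.89–5.30) in BAT (355 against 114 CPM). In the cow the ratio was 0.94 (0.63–1.40), with 129 and 136 CPM. Notch3 gave 1.59 (1.15–2.20), 2.17 (1.75–2.69) and 0.75 (0.62–0.90) in the same order. In mesPVAT Parse, Notch3 was at 564 CPM (37 UMIs) in smooth muscle and 188 CPM (2 UMIs) in pericyte nuclei. The ratio of smooth muscle over pericytes was 2.99 (0.77–25.6) there. In RP fat, smooth muscle nuclei held 6 Notch3 UMIs and pericytes 0. Those pericytes held so few UMIs that 1 UMI equalled 269 CPM, so the 0 shows no lean to either side. The difference between the species was not tested, since each has its own annotation and there is 1 library of each tissue. As taPVAT and BAT are brown and the cow depot is white, species and kind of fat cannot be told apart from taPVAT, BAT and cow sWAT alone. Within the rat, the white libraries held few pericyte UMIs of Notch3, and the part of kind of fat was not tested.

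**Figure D4:**
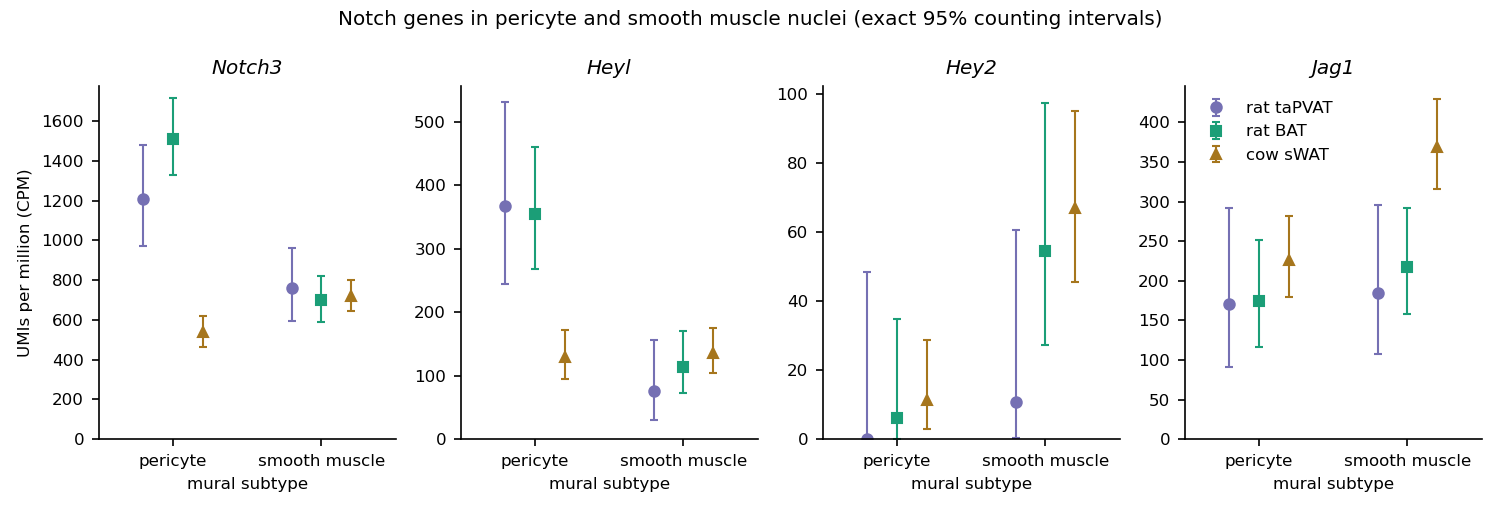
CPM (y axes, linear from 0) of 4 genes in nuclei called pericyte or smooth muscle (x axes) with exact 95% counting intervals. In rat taPVAT and BAT, Heyl is higher in pericytes (367 and 355 CPM against 76.0 and 114 CPM). Hey2 of BAT and cow lies in smooth muscle (54.4 and 67.0 CPM against 6.22 and 11.2 CPM).

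Notch2 was highest in immune nuclei of taPVAT, BAT and cow sWAT, followed by stromal nuclei. Immune nuclei held 346 CPM (272–435) in taPVAT, 333 CPM (224–475) in BAT and 794 CPM (761–827) in the cow, 3.65, 4.61 and 2.41 times the other nuclei, and in mesPVAT 10x they held 664 CPM, 3.46 times. Immune nuclei of the Parse library labelled mesPVAT held 108.5 CPM, and the ratio of 1.27 (0.731–2.11) did not exceed the counting error. Mesothelial nuclei of that library held 243 CPM (97.6–500; 7 UMIs). In the library labelled RP fat, immune nuclei held 112 CPM (7 UMIs), 0.974 times (0.364–2.24) the others. Past 2-fold higher in immune nuclei were 29.2%, 34.9% and 12.1% of all genes of the deeper libraries. Stromal nuclei were at 232, 170 and 447 CPM. Endothelial nuclei, where Notch1 and Notch4 were highest, were the lowest class of these 5 for Notch2, at 59.2, 26.3 and 119 CPM. Rbpj, the DNA-binding partner of all Notch receptors, was also highest in immune nuclei, at 1399, 1087 and 2336 CPM.

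Hey2 was the only 1 of the 9 members tested that was past 2-fold higher in adipocyte nuclei of taPVAT and BAT. Of all genes, 9.23% and 11.1% were, so that the count itself is not a result about the members. Adipocyte nuclei of taPVAT held 178 of its 189 UMIs (94.2%) and those of BAT 238 of 261 (91.2%), at 48.6 CPM (41.8–56.3) and 50.0 CPM (43.8–56.7), so that the depots differed by less than the counting error (0.97 times, 0.80–1.19). These levels were 6.33 (3.36–13.4) and 3.23 (2.10–5.19) times those of the other named nuclei. By co-detection, 153 of 164 Hey2-positive nuclei of taPVAT (93.3%) and 200 of 215 of BAT (93.0%) also held a Plin1 UMI, against 60.4% and 69.1% of all nuclei. The positive nuclei were deeper, at a median of 3411.5 and 3184 UMIs against 1246 and 1706, and the part of depth in these shares was not tested. Co-detection was less clear for Notch3 and Notch1. Of Notch3-positive nuclei in taPVAT, 52.7% held Plin1 and 47.3% Pdgfrb, against 60.4% and 9.12% of all nuclei. Of Notch1-positive nuclei in taPVAT, 55.1% held Plin1 and 49.0% Ptprb, against 60.4% and 21.8%.

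White adipocyte nuclei gave almost no Hey2. In mesPVAT Parse, the same kit and batch, 1 UMI was found in 615 adipocyte nuclei (2.14 CPM), and BAT was 23.4 times (4.15–927) higher. In mesPVAT 10x there was none in 2249 adipocyte nuclei, which allows up to 6.75 CPM, and the exact interval of the BAT ratio began at 7.35-fold. In RP fat there was none in 136 nuclei, but this allows up to 69.6 CPM, so that a level like that of BAT was not excluded at this depth. In the cow 1 UMI was found in 150 adipocyte nuclei of high depth (0.357 CPM, 0.00905–1.99).

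Ucp1, the uncoupling protein of brown adipocytes and none of the class markers, was set beside Hey2 outside adipocyte nuclei. Endothelial nuclei held Ucp1 at 16.1% of the adipocyte level in both taPVAT and BAT, and Hey2 at 14.7% (3.97–38.4) and 16.0% (6.38–33.5). The 2 genes thus had like ratios, with wide intervals for Hey2, which rests on 4 and 7 endothelial UMIs. Whether UMIs of either gene outside adipocyte nuclei were made in those nuclei or carried over was not tested. In mural nuclei of BAT, Hey2 was at 70.7% (37.1–123) of the adipocyte level against 14.4% (12.1–17.0) for Ucp1, and 11 of its 13 UMIs lay in smooth muscle nuclei (54.4 CPM, 27.2–97.3). Adipocyte nuclei of BAT held Hey2 at 50.0 CPM (43.8–56.7), so that smooth muscle and adipocyte levels were not told apart. In taPVAT the mural class held 1 Hey2 UMI (5.72 CPM). Divided by Ucp1 after the data were seen, adipocyte nuclei with a Ucp1 UMI held Hey2 at 52.1 CPM (45.6–59.2) and those without at 21.5 CPM (8.63–44.2) in BAT, with overlap in taPVAT (49.6 against 38.6 CPM). Nuclei with Ucp1 were deeper, with a median of 2431 against 1026 UMIs in BAT.

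In cow sWAT, HEY2 was highest in mural nuclei. Mural nuclei had 38 of 80 UMIs, at 43.3 CPM (30.6–59.4), 16.1 times (10.1–25.6) the other named nuclei. In nuclei whose only anchor was Pdgfrb, a gene of mural and stromal cells, the ratio was 8.30. Smooth muscle nuclei were at 67.0 CPM and pericytes at 11.2 CPM, a ratio of 5.99 (2.12–23.4). The smooth muscle levels of BAT and cow thus lay side by side, at 54.4 CPM (27.2–97.3) and 67.0 CPM (45.5–95.1). In white fat of the rat, mural nuclei of mesPVAT Parse held 2 Hey2 UMIs (24.1 CPM, 2.92–87.2) and adipocyte nuclei 1 (2.14 CPM). As taPVAT and BAT are brown and the cow depot is white, species and kind of fat cannot be told apart from taPVAT, BAT and cow sWAT alone. Within the rat, the mural comparison rests on the few white-fat UMIs given here, and the part of kind of fat was not tested. Hey1 had too few UMIs for class ratios in the rat, where 9 of 11 UMIs in BAT and 4 of 12 in taPVAT were endothelial. In the cow, endothelial nuclei held 49 of its 96 UMIs, 3.63 times (2.37–5.57) the others.

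**Figure D5:**
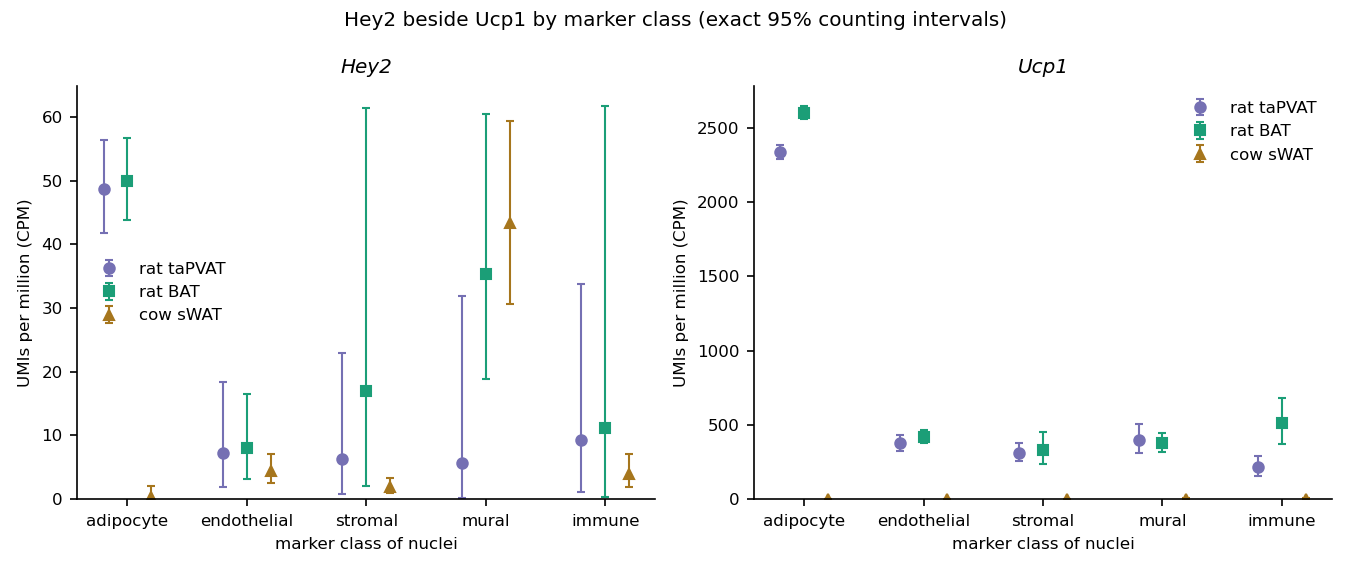
CPM (y axes, linear from 0) of Hey2 (left) and Ucp1 (right) in each class of nuclei (x axes), with exact 95% counting intervals, in 3 libraries. In taPVAT and BAT both genes are highest in adipocyte nuclei (Hey2 48.6 and 50.0 CPM), whereas cow HEY2 is highest in mural nuclei (43.3 CPM).

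Of the members tested, Jag1 had the highest adipocyte ratio in both libraries labelled mesPVAT. In mesPVAT 10x it was at 327 CPM (281–379) in adipocyte nuclei, 2.36 times (1.70–3.33) the other named nuclei, although endothelial nuclei held 352 CPM (18 UMIs). Adipocyte nuclei of the Parse library labelled mesPVAT held 130.4 CPM (99.8–168), 1.53 times (1.06–2.21) the other nuclei, and this was 2.40 times (1.78–3.18) the adipocyte level of BAT (54.4 CPM). Over all nuclei of mesPVAT Parse, the sublibraries differed for Jag1, at 73.1 and 113 CPM. In the library labelled RP fat, adipocyte nuclei had 2 Jag1 UMIs, or 37.7 CPM (4.57–136), 0.742 times (0.0824–3.19) the others. Lfng, a glycosyltransferase that alters how receptors respond to ligands, was at 353 CPM in adipocyte nuclei of the 10x library and 74.8 CPM in those of the Parse library, 4.12 (2.78–6.32) and 2.37 (1.36–4.19) times the other nuclei. Hes1 had 662 of its 948 UMIs of mesPVAT 10x in adipocyte nuclei (1211 CPM).

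The other pathway genes were described from a list of 39 ligands, modifiers, proteases, cofactors and regulators. In endothelial nuclei 6 of 33 tested were past 2-fold higher in taPVAT, 7 of 32 in BAT and 5 of 35 in the cow, where 16.2%, 16.5% and 6.33% of all genes were, and Dll1, Mfng, Adam10 and Egfl7 were among them in each library. In taPVAT 11 were higher in immune, 9 in mural and 8 in stromal nuclei (29.2%, 22.4% and 22.8% of all genes), and in BAT 9, 8 and 10 (34.9%, 18.8% and 28.6%). In the cow these counts were 3, 4 and 2 (12.1%, 11.4% and 3.46%). In adipocyte nuclei 2, 0 and 0 were higher in taPVAT, BAT and the cow (9.23%, 11.1% and 8.14% of all genes). Dll1, a Delta-like ligand, was at 53.8, 43.5 and 24.1 CPM in endothelial nuclei, 11.8, 11.1 and 4.65 times the others. Egfl7, a protein secreted by endothelium, was at 626, 692 and 578 CPM. Adam10, an ADAM protease that cleaves the receptor after a ligand has bound, was at 163, 126 and 366 CPM. Maml2, a coactivator, was at 1287 and 1268 CPM in rat endothelial nuclei, 2.77 and 3.21 times the others, but at 938 CPM and 0.695 times in the cow. The feedback regulator Nrarp had 2 to 10 UMIs in each library, and Dlk1, a non-classical ligand of preadipocytes, had 0 to 14.

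Over 15 classes of nuclei from taPVAT, BAT and cow sWAT, the genes with the most similar levels were found among 6040 genes by Pearson's r of log2(CPM + 10). The 15 points share libraries and depth, and r is a description only. Notch3 was nearest to Ednra (r = 0.97), Gucy1a1 (0.97) and Gjc1 (0.96), and Heyl to Irag1 (0.95), Mindy4 (0.95) and Daam2 (0.93). Notch4 was nearest to She (0.97), Rapgef3 (0.97) and Rbp7 (0.95), Dll4 to Dock9 (0.97), Ralgapa1 (0.96) and Dach1 (0.95), and Notch1 to Sncaip (0.91), Pkp4 (0.90) and Afap1l1 (0.88). Hey2 was nearest to Dtna (0.93), Pdk4 (0.85) and Parm1 (0.85), and Notch2 to Wdfy2 (0.90), Vmp1 (0.89) and Dpp10 (0.88). For Jag1 these were Yap1, Enah and Parva (0.91 to 0.89), for Jag2 Tspan13, Rph3al and Ccdc85a (0.91 to 0.86) and for Hey1 Epha4, Itgb4 and Laptm4b (0.86 to 0.84).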

How the data were processed

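The deposited files held raw counts of UMIs per gene and nucleus, made by the authors with Cell Ranger (10x library, version 7.1.0) or the Parse split-pipe pipeline on GRCr8 (rat) and ARS-UCD1.3 (cow), with nuclei already called. All deposited nuclei were used. Counts were summed over nuclei and divided by all UMIs of the same nuclei (CPM). The 10 genes, the 39 pathway genes and the markers were chosen with earlier results of these data known. Classes came from 68 marker genes, with no doublet removal, so that nuclei of mixed content remain. Subtypes needed 1 marker UMI. Genes named beside the members were 10 pathway genes, 5 anchors (Plin1, Ptprb, Pdgfra, Pdgfrb, Ptprc) and the 3 most similar genes per member. A gene, class markers aside, was tested for a 2-fold difference where it had at least 20 UMIs over both sides, with 0.5 UMIs added to each side for the call and medians, and classes where they had at least 50 nuclei. Each library had 1 sample, so no model was fitted. Intervals cover counting error only. The scripts (Python 3.11.15, numpy 2.4.6, scipy 1.17.1) were tested on simulated data. Alternatives were the study's cut-offs (100 to 15000 UMIs, at most 4500 genes, at most 3% mitochondrial UMIs, 5 median absolute deviations), at least 500 UMIs, other weights, scaling and minimum counts. The cut-offs were applied to each library alone and without the study's doublet step, whereas the study applied the deviations after combining samples.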

Additional observations from a re-analysis of the deposited data

How the results depend on the processing

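No paired analysis was possible because each group had 1 library. Class ratios were recomputed only for chosen pairs in taPVAT, BAT and cow sWAT. These were endothelial Notch4, Dll4 and Notch1, mural Notch3 and Heyl, immune Notch2, and Hey2 in rat adipocyte or cow mural nuclei. Of 63 values, 40 stayed within the counting interval and none changed direction. All were ratios far above 1, so a change of direction was unlikely. Weaker class ratios and the subtype ratios were not recomputed. The summed level of the 10 genes was 632 CPM in mesPVAT 10x, 573 in mesPVAT Parse, 422 CPM in RP fat, 525 CPM in taPVAT, 540.2 CPM in BAT and 966 CPM in cow sWAT. With nuclei of at least 500 UMIs it was 573, 637 and 483 CPM in the first 3. With nuclei weighted equally it was 499 in mesPVAT Parse, 622 in taPVAT, 619 in BAT and 925 in the cow. Without the gene with the most UMIs it was 596, 616 and 1087 in taPVAT, BAT and cow. The taPVAT sublibraries gave 548 and 500.4 CPM. With classes from a single anchor gene, the endothelial ratios of Notch4, Dll4 and Notch1 were 16.6, 19.3 and 8.53 in taPVAT and 19.4, 21.3 and 7.53 in BAT, and Notch4 and Dll4 gave 10.5 and 22.4 in the cow. In place of the mural class stood nuclei whose only anchor was Pdgfrb, a gene of mural and stromal cells. Their Notch3 and Heyl ratios were 26.9 and 39.7 in taPVAT, 54.6 and 36.2 in BAT and 13.5 and 4.67 in the cow. Their Hey2 ratio in the cow was 8.30, and immune Notch2 gave 3.25 there. The study's cut-offs gave 31.9 and 21.9 for mural Notch3 and Heyl in BAT. In the cow they gave 14.6, 15.3 and 3.60 for endothelial Notch4, Dll4 and Notch1, 6.73 for mural Notch3 and 2.85 for immune Notch2. Under median-of-ratios scaling, a shift of -0.28 on the log2 scale, 2 genes rather than 1 were past 2-fold between mesPVAT Parse and RP fat. With at least 50 UMIs required, fewer genes could be tested, and 5 rather than 8 gene and class pairs were past 2-fold in mesPVAT Parse and 0 rather than 4 in RP fat. With at least 3 marker UMIs, RP fat gave 2. The share of all genes past 2-fold was not recomputed under these alternatives, so these counts are no result about the members. The cause of the other shifts was not tested. For levels of single genes per library, 179 of 240 recomputed values stayed within the counting interval. At their depth, 4 of the 10 genes had enough UMIs for class ratios in RP fat and in mesPVAT 10x.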
